A study of Mus musculus with 61 samples.

Results

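Heat shock proteins and their DnaJ partners fold other proteins, and 70 genes of this kind were followed in single cells of the neonatal mouse ovary. They were chosen by symbol: every gene row whose name begins with Hspa, Hspb, Hspd, Hspe, Hsph, Hsp90, Dnaja, Dnajb or Dnajc was taken, 3 pseudogene rows were left out, and 70 of 23927 gene rows remained. By family they were 13 HSP70 and HSP110 genes, 3 HSP90 genes, 3 chaperonin rows (HSP60 and HSP10), 5 small heat shock proteins, 4 DNAJA, 12 DNAJB and 27 DNAJC genes. A further 3 rows (Hspbp1, Hspbap1 and Hspb11) carry an Hspb prefix but are not small heat shock proteins.

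HSP70 proteins bind short hydrophobic stretches of unfolded proteins in a cycle driven by ATP. DnaJ proteins (also called J-proteins or HSP40) deliver the client and trigger ATP hydrolysis, and nucleotide exchange factors, among them the HSP110 proteins, release it. HSP90 acts on nearly mature clients such as kinases and steroid receptors, HSP60 with its lid HSP10 folds proteins inside mitochondria, and small heat shock proteins hold unfolded proteins without ATP. Under heat or other proteotoxic stress, heat shock factor HSF1 binds repeats of a GAA unit in the promoters of a subset of these genes. Oocytes are long-lived cells with many mitochondria and stored proteins, and granulosa cells are the somatic cells that surround them.

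Each library was made from 1 cell of a wild-type CD-1 mouse ovary at postnatal day 5, taken 6 h after an intraperitoneal injection. The 4 groups were oocytes after solvent (16 control oocytes), oocytes after doxorubicin (16), granulosa cells after solvent (16 control granulosa cells) and granulosa cells after doxorubicin (13). Doxorubicin is an anticancer drug that poisons topoisomerase II and breaks DNA, and the series as a whole is about JNK signalling in oocytes and ovarian insufficiency after such drugs. The labels write the dose as 10 mg/kb, which is not a unit of dose, so the dose itself is uncertain. No label says which animal a cell came from, so the cells of a group count as 1 sample and no comparison below carries a p-value.

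Between 6834594 and 31262609 counts were assigned to genes in each library, with group medians from 10826423 to 11478173. Levels are counts per 1000000 counts assigned to genes (CPM), a share of a cell's own transcript pool and not an amount per cell. The oocyte label held in all 32 oocyte libraries, where summed oocyte markers (zona pellucida and other germline genes) came to at least 19018 CPM and exceeded granulosa markers. The granulosa label did not hold throughout: 6 of 16 control and 8 of 13 doxorubicin granulosa libraries had more oocyte-marker than granulosa-marker CPM. Summed oocyte markers had a median of 1770 CPM (359 to 17626) in control and 9212 CPM (373 to 45072) in doxorubicin granulosa libraries, and all 14 oocyte markers that reached 5 CPM were at least 2-fold higher after doxorubicin. Summed stroma markers (genes of the connective tissue cells around follicles) had a median of 839 CPM (1.31 to 13451) in control and 687 CPM (0.562 to 8635) in doxorubicin granulosa libraries, and exceeded granulosa markers in 5 and 2 of them. Of 8 stroma markers, 7 had a lower group level after doxorubicin and 4 were at least 2-fold lower. Doxorubicin granulosa cell 15 had 34796 CPM of blood and immune markers. In the oocytes, summed granulosa markers ranged from 2.86 to 806 CPM in controls and from 7.68 to 3113 CPM after doxorubicin. For some results, ratios over the libraries with more of their own markers than of the other cell type's are given as well. As a check of the treatment labels, 7 of 7 listed p53 target genes were at least 2-fold higher after doxorubicin in granulosa cells and 6 of 7 in oocytes.

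The promoters of the 4 members whose oocyte values are followed most closely below are shown first. They are shown because HSF1 binds repeats of a GAA unit in the promoters of some heat shock genes. Whether it bound in these cells was not measured. Each is the 250 bases before the RefSeq start (GRCm38.p6), written in the direction of the gene, with matches to GAANNTTC or TTCNNGAA (a pair of GAA units head to head or tail to tail, each reading the same on both strands) in capitals. Hspa1a lies at chr17:34972157-34972406 on the minus strand, Hspa1b at chr17:34959239-34959488 on the minus strand, Hspb1 at chr5:135887669-135887918 on the plus strand and Hspe1 at chr1:55087898-55088147 on the plus strand.
Hspa1a: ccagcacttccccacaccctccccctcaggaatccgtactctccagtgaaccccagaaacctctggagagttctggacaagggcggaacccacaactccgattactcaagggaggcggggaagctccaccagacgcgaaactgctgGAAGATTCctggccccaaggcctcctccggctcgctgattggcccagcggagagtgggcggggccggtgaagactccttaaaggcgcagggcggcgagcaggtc
Hspa1b: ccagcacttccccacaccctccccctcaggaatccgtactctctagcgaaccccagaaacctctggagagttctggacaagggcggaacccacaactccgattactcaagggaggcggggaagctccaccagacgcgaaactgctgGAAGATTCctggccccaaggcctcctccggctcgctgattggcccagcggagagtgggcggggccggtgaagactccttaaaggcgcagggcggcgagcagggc
Hspb1: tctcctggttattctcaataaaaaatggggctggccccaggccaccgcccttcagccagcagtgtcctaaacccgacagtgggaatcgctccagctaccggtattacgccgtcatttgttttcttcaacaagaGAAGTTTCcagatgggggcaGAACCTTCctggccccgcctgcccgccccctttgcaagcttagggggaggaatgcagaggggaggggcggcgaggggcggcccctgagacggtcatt
Hspe1: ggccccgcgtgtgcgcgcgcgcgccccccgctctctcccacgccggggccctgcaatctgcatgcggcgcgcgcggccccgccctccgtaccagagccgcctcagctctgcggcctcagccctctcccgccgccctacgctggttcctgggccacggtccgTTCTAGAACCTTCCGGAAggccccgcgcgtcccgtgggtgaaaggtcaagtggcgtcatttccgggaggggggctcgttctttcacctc

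The Hspa1a and Hspa1b windows differed at 3 of 250 positions and held 1 match each, in the same surroundings. Hspb1 held 2 separate matches, and Hspe1 held 3 that overlap in 1 run. The table held 73 windows for 56 members, since some have more than 1 start. Of these windows 11 had GAANNTTC and 8 had TTCNNGAA, and across all 32851 windows of the same length the shares were 6.69% and 7.17%. The longer form with 3 alternating units (GAANNTTCNNGAA or TTCNNGAANNTTC) occurred in 4 member windows, those of Dnajb6, Hspd1 and Hspe1, and in 0.466% of all windows. A match describes letters only.

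In the transcript pool of a cell these genes took a larger total share in granulosa cells than in oocytes, by the median. Within each cell type the share was similar with and without doxorubicin. Their summed level had a median of 13032 CPM in control oocytes (11284 to 14628), 13288 CPM in doxorubicin oocytes (11778 to 15293), 16776 CPM in control granulosa cells (11325 to 25704) and 16465 CPM in doxorubicin granulosa cells (10978 to 23532). With solvent and with doxorubicin alike, the granulosa median lay above the highest oocyte. The granulosa cells were spread more widely, and all 4 ranges overlapped. HSP90 and HSP70 genes made up most of the sum: HSP90 genes had a median of 4833 CPM in control oocytes and 4298 CPM in control granulosa cells, and HSP70 and HSP110 genes had 3417 and 8919 CPM.

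**Figure D1:**
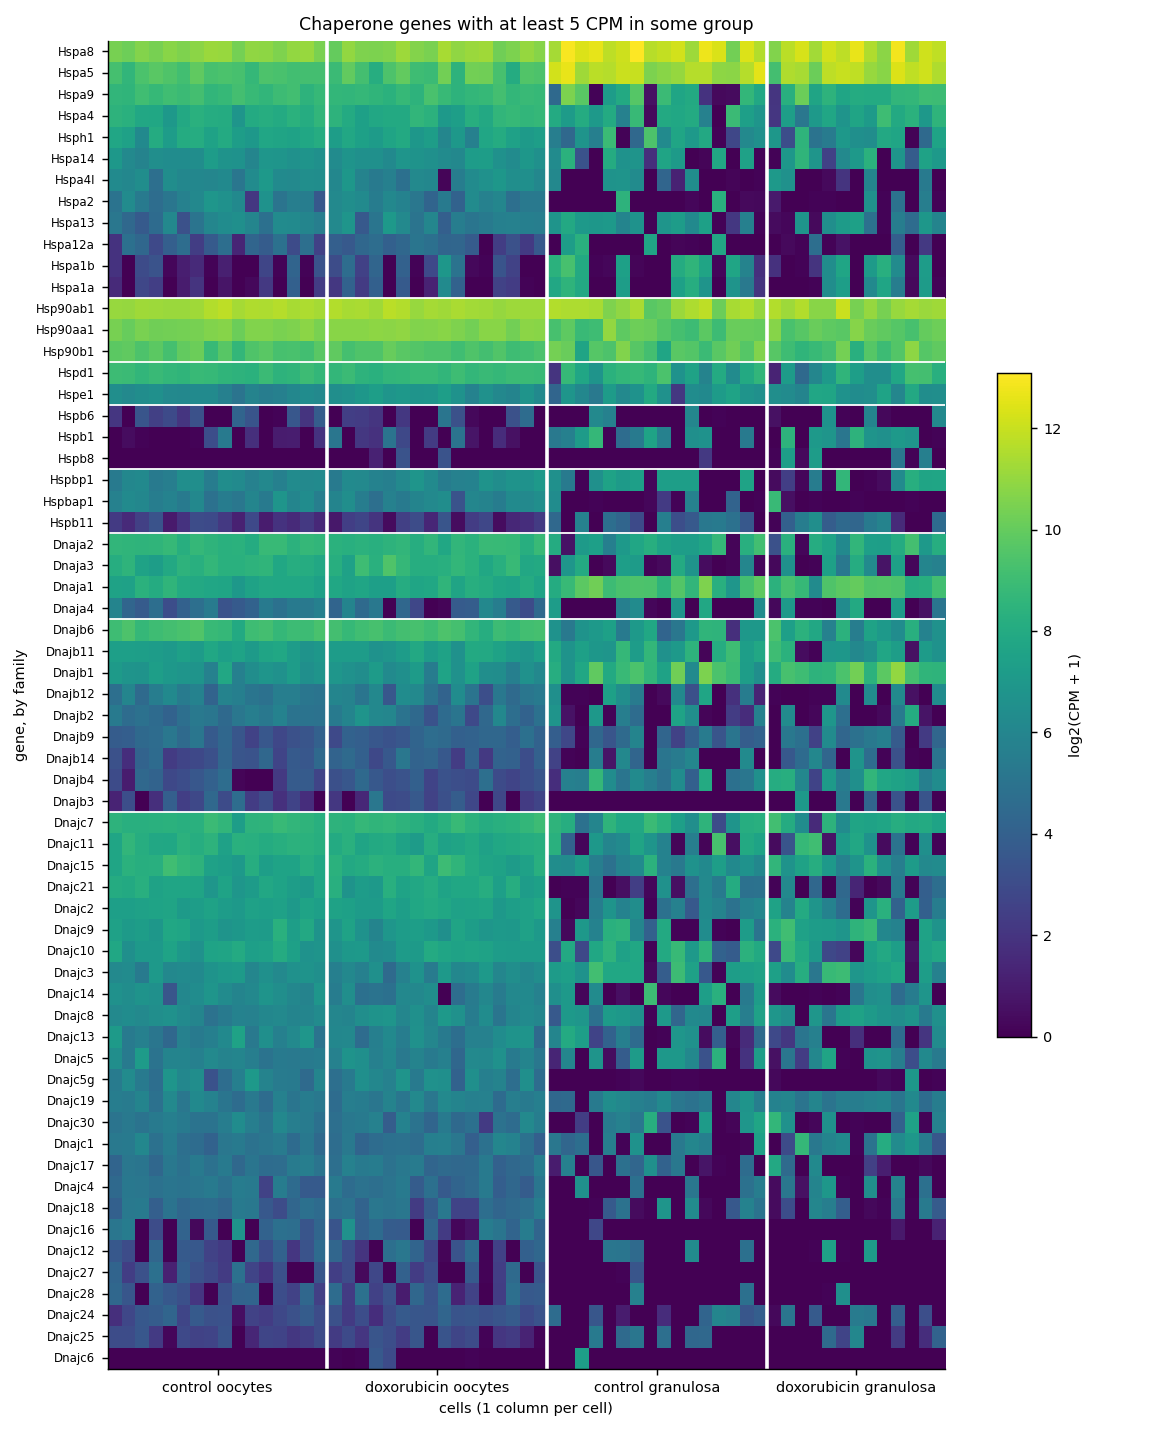
Level of 62 chaperone genes with at least 5 CPM in some group, as log2(CPM + 1), with genes in rows by family and 1 column per cell. Oocyte columns are mostly alike within a row, whereas many rows switch between bright and dark from one granulosa cell to the next.

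Detection differed more than the total. A control oocyte had a median of 57.5 members at 1 CPM or more (54 to 60) and a control granulosa cell 40.5 (26 to 50). Of the 70 members, 48 reached 1 CPM in every control oocyte and 13 in every control granulosa cell. The count of all genes at 1 CPM differed in the same direction, with medians of 11857 in control oocytes and 6963.5 in control granulosa cells, so the lower member count went with fewer genes per library. Doxorubicin cells were close to their controls, with medians of 58 members in oocytes and 43 in granulosa cells. Only 12 members reached 1 CPM in all 61 cells.

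Levels of different genes can be set side by side only per length, as CPM per kilobase of the longest coding transcript. On that scale Hsp90ab1, the constitutive cytosolic HSP90, was highest in control oocytes at 1037 CPM per kb, ahead of Hspa8 (700), Hsp90aa1 (431), Hsp90b1 (272) and the J-protein Dnajb6 (186). In control granulosa cells the order was Hspa8 (2023), Hspa5 (921) and Hsp90ab1 (898). After doxorubicin the leading gene was the same in each cell type: Hsp90ab1 at 1026 CPM per kb in oocytes and Hspa8 at 1637 in granulosa cells.

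The comparison of control oocytes with control granulosa cells asks how the chaperone set differs between the cell types before any drug. Cytosolic HSP70 (Hspa8, Hspa1a and Hspa1b), its partners Dnaja1, Dnajb1 and Dnajb4, the small heat shock protein Hspb1 and the endoplasmic reticulum HSP70 were all lower in oocytes, with log2 ratios from -1.53 to -5.27, while HSP90 and mitochondrial HSP60 differed by less than 2-fold. A distinct set of J-proteins, led by Dnajc5g, Dnajb3 and Dnajc16, was higher in oocytes. In 62 members one of the groups reached 5 CPM, and 12 of these were at least 2-fold higher in oocytes (19.4%, against 29.0% of all 12373 genes at that level). Another 12 were at least 2-fold lower (against 31.3% of all genes). The members' median log2 ratio was -0.14, and that of all genes was -0.03. Taken instead as the difference of the medians over cells on the log2(CPM + 1) scale, which favours genes seen in most cells, the median was 1.21 for the members and 1.53 for all genes, and 33 members were at least 2-fold higher in oocytes (53.2%, against 55.5% of all genes).

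Cytosolic HSP70 was lower in oocytes through Hspa8 and the inducible pair. Hspa8, the constitutive HSP70, was at 1179 to 2225 CPM in control oocytes (median 1700) and 1279 to 8739 CPM in control granulosa cells (median 4564). In 15 of 16 granulosa cells it was above every oocyte, and the log2 ratio of the group levels was -1.53 (95% interval -1.54 to -1.52). Such intervals cover counting error only, which is far smaller than the spread between cells. Hspa1a and Hspa1b, the inducible HSP70 genes, lie close together on chromosome 17 (chr17:34969190-34972156 and chr17:34956436-34959238, both minus strand). Their coding sequences are 1926 and 1929 bases long and 99.585% identical, so how reads were divided between them is uncertain and their sum is given.

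The Hspa1a and Hspa1b sum was 0 to 33.1 CPM in control oocytes (median 2.03) and 0 to 998 CPM in control granulosa cells (median 200). It was at least 1 CPM in 9 of 16 oocytes and 10 of 16 granulosa cells. The pair was thus present in a similar number of cells of either type but at much lower levels in the oocytes, with a log2 ratio of -5.22 (-5.29 to -5.14). Hspa2, an HSP70 best known from spermatogenic cells, was at 49.2 CPM in control oocytes. Its granulosa level of 47.8 CPM came from 2 cells.

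The HSP110 proteins, which act as exchange factors for HSP70, went the other way: all 3 had a higher group level in oocytes (against 6103 of all 12373 genes). Hspa4l was at 74.8 CPM against 30.4 CPM (log2 ratio 1.30, or 0.60 over libraries with more of their own markers), Hspa4 at 281 against 188 CPM, and Hsph1 at 209 against 140 CPM. Hspa4l reached 1 CPM in 7 of 16 control granulosa cells.

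HSP90 levels were close. Hsp90ab1 was at 2048 to 3496 CPM in control oocytes (median 2563) and 849 to 3571 CPM in control granulosa cells (median 2672). The highest values were alike, 5 of 16 granulosa cells lay below every oocyte, and the log2 ratio was 0.21. Hsp90aa1, the stress-responsive cytosolic isoform, was at 1068 to 1828 CPM in oocytes (median 1384) and 472 to 1972 CPM in granulosa cells (median 904), a log2 ratio of 0.68. The granulosa median lay below the lowest oocyte, but the highest granulosa cell exceeded them all.

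All 8 listed endoplasmic reticulum members had a lower group level in oocytes, as did 6270 of all 12373 genes at that level. Of the 8, 2 passed 2-fold (against 31.3% of all genes). Hspa5 (BiP, chr2:34771970-34777547), the HSP70 of that compartment, was at 395 to 943 CPM in control oocytes (median 620) and 1480 to 6397 CPM in control granulosa cells (median 3197). Every oocyte was below every granulosa cell, a pattern that 0.453% of all genes at that level showed, and the log2 ratio was -2.44 (-2.45 to -2.43). Dnajc3, a J-protein co-chaperone of BiP also known as p58IPK, was at 88.5 against 185 CPM (log2 ratio -1.06). Hsp90b1 (GRP94), the HSP90 of the same compartment, was at 768 against 868 CPM (-0.18), and Dnajb9, a J-protein that binds BiP, was at 16.3 against 17.3 CPM (-0.09). The other 6 listed genes had log2 ratios between -0.97 and -0.09. Among co-chaperones that are no members, Hyou1 and Sil1 of the same compartment were higher in oocytes, with log2 ratios of 2.23 and 1.30.

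Mitochondrial folding genes had a median log2 ratio of 0.50 over 8 members, 3 of them at least 2-fold higher in oocytes (against 29.0% of all genes). Hspd1 (HSP60) was at 331 to 510 CPM in control oocytes (median 404) and 2.92 to 662 CPM in control granulosa cells (median 247). The oocytes were tightly grouped inside the wide granulosa range, and the log2 ratio was 0.59. Hspa9 (mortalin), the mitochondrial HSP70, was at 459 against 347 CPM (0.40). Its J-protein Dnaja3 was at 284 against 76.9 CPM (1.88), Dnajc15, a J-protein of the import motor, at 262 against 95.3 CPM (1.46), and Dnajc11, linked to cristae organisation, at 293 against 130 CPM (1.17).

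**Figure D2:**
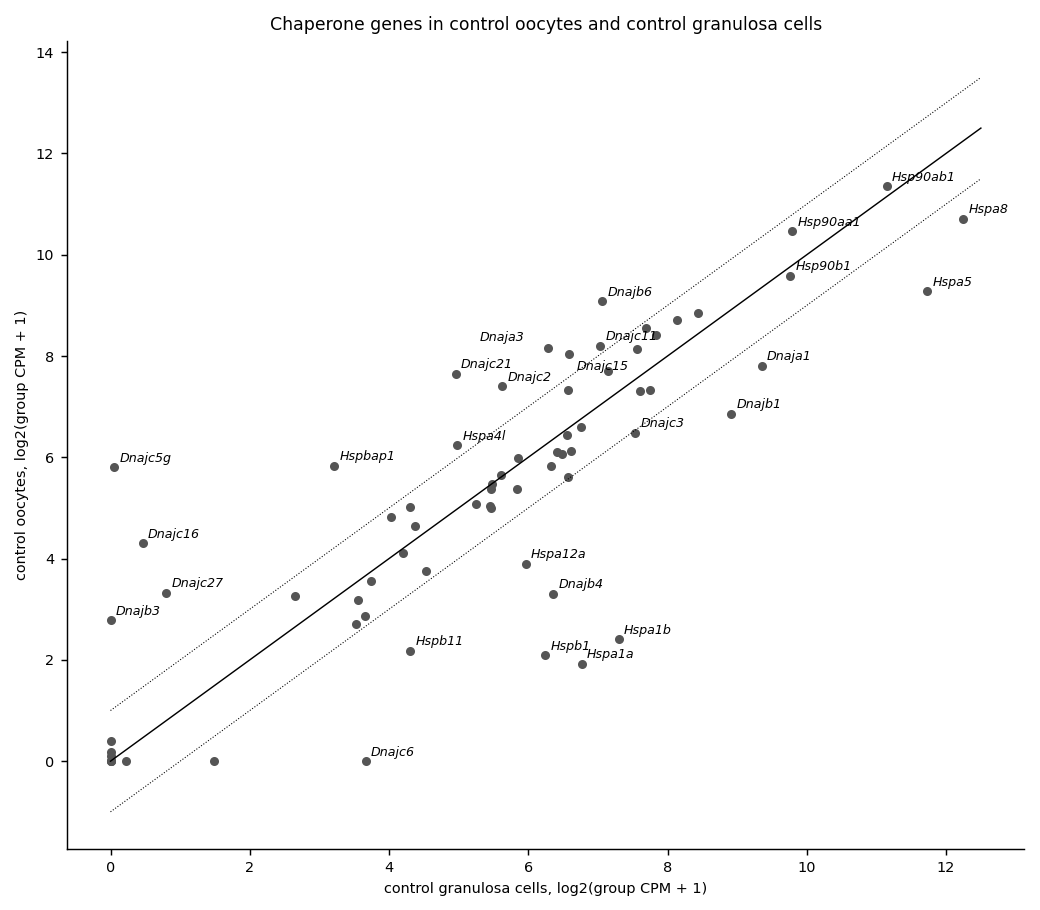
Group level of each chaperone gene in control granulosa cells (horizontal) and control oocytes (vertical), both as log2(group CPM + 1). The solid line marks equal levels and the dotted lines 2-fold; Hspa8, Hspa5, Dnajb1 and Hspb1 lie below the band, and Dnajc5g, Dnajc16 and Dnajb6 above it.

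J-proteins lay on both sides. Dnajb1, the main heat-inducible partner of HSP70, was at 51.4 to 231 CPM in control oocytes (median 110) and 77.2 to 1443 CPM in control granulosa cells (median 337), a log2 ratio of -2.06 (-2.08 to -2.04). Dnajb4, a close relative, was at 0 to 24.6 CPM in oocytes (median 7.28) and 0 to 424 CPM in granulosa cells (median 47.4), a ratio of -3.19. Dnaja1, a farnesylated partner of Hspa8, was at 223 against 653 CPM (-1.55). For Dnajb1 and Dnajb4 the granulosa median was above the highest oocyte.

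The J-proteins higher in oocytes were other genes. Dnajc5g (chr5:31106285-31112526), a cysteine-string protein relative of the germ line, was at 9.0 to 134 CPM in control oocytes (median 45.7), whereas 6 counts were found in all 16 control granulosa cells together. No granulosa cell reached an oocyte, and the log2 ratio was 10.69 (9.57 to 12.14). Dnajc2 (chr5:21757267-21785251), which works at the ribosome with an HSP70, was at 133 to 199 CPM in oocytes (median 167) and 0 to 108 CPM in granulosa cells (median 54.1), with no overlap and a ratio of 1.80. These were the only 2 members with every oocyte above every granulosa cell (3.23% of members, against 3.25% of all genes).

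Dnajb6, which suppresses aggregation of glutamine-rich proteins, was at 248 to 731 CPM in oocytes (median 517) and 2.34 to 382 CPM in granulosa cells (median 126). Only the lowest oocyte reached the granulosa range, and the log2 ratio was 2.03. Dnajc21, a J-protein of ribosome assembly, was at 199 against 30.1 CPM (2.73). Dnajc16 was at 18.7 against 0.378 CPM (5.63, or 4.94 over libraries with more of their own markers) and Dnajc27 at 9.02 against 0.745 CPM (3.60, or 2.90). Dnajb3 had 1157 counts in oocytes (5.91 CPM) and none in control granulosa cells, so it was at least 354-fold higher when the granulosa group is set to 3 counts in all. Hspbap1, a binding partner of Hspb1, was at 56.2 against 8.25 CPM (2.77).

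Small heat shock proteins were scarce in oocytes, with a summed level of 0 to 39.4 CPM (median 7.16) against 0 to 488 CPM (median 46.1) in control granulosa cells. Hspb1 (HSP27) was at 0 to 39.4 CPM in oocytes (median 0.0911) and 0 to 419 CPM in granulosa cells (median 40.5), a log2 ratio of -4.51. In granulosa cells it was the main part of the sum, but in oocytes Hspb6 (HSP20) had the higher group level, 6.24 CPM against 3.26 CPM for Hspb1. Hspb2 and Hspb7 had no counts in either control group, which allows up to 3 counts in the group. Hspb11, an intraflagellar transport protein despite its symbol, was at 3.55 against 18.7 CPM (-2.40).

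Among 11 heat-inducible members (Hspa1a, Hspa1b, Hspa8, Hsph1, Hsp90aa1, Hspb1, Hspd1, Hspe1, Dnaja1, Dnajb1 and Dnajb4), 7 were at least 2-fold lower in control oocytes (against 31.3% of all genes), none was 2-fold higher, and the median log2 ratio was -1.55 against -0.03 for all genes. Immediate-early genes (Fos, Jun, Egr1 and 5 others), which respond within minutes to handling, dissociation and many signals, were measured beside them: 8 of 8 were at least 2-fold lower in oocytes, with sums of 482 CPM in control oocytes and 10979 CPM in control granulosa cells. Their part in the difference was not tested. The 6 control granulosa libraries had more oocyte than granulosa markers. Without them, 11 of the 12 members higher in oocytes and 10 of the 12 lower ones stayed beyond 2-fold in the same direction, and Hspa12a, which 4 control granulosa cells carried, changed direction. Stroma markers were also lower in oocytes, 8 of 8 by at least 2-fold. Over the 11 control granulosa cells with more granulosa than stroma markers, 14 members were at least 2-fold higher in oocytes and 16 lower. No share of all genes over those cells is given, so these counts cannot be called many or few.

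**Figure D3:**
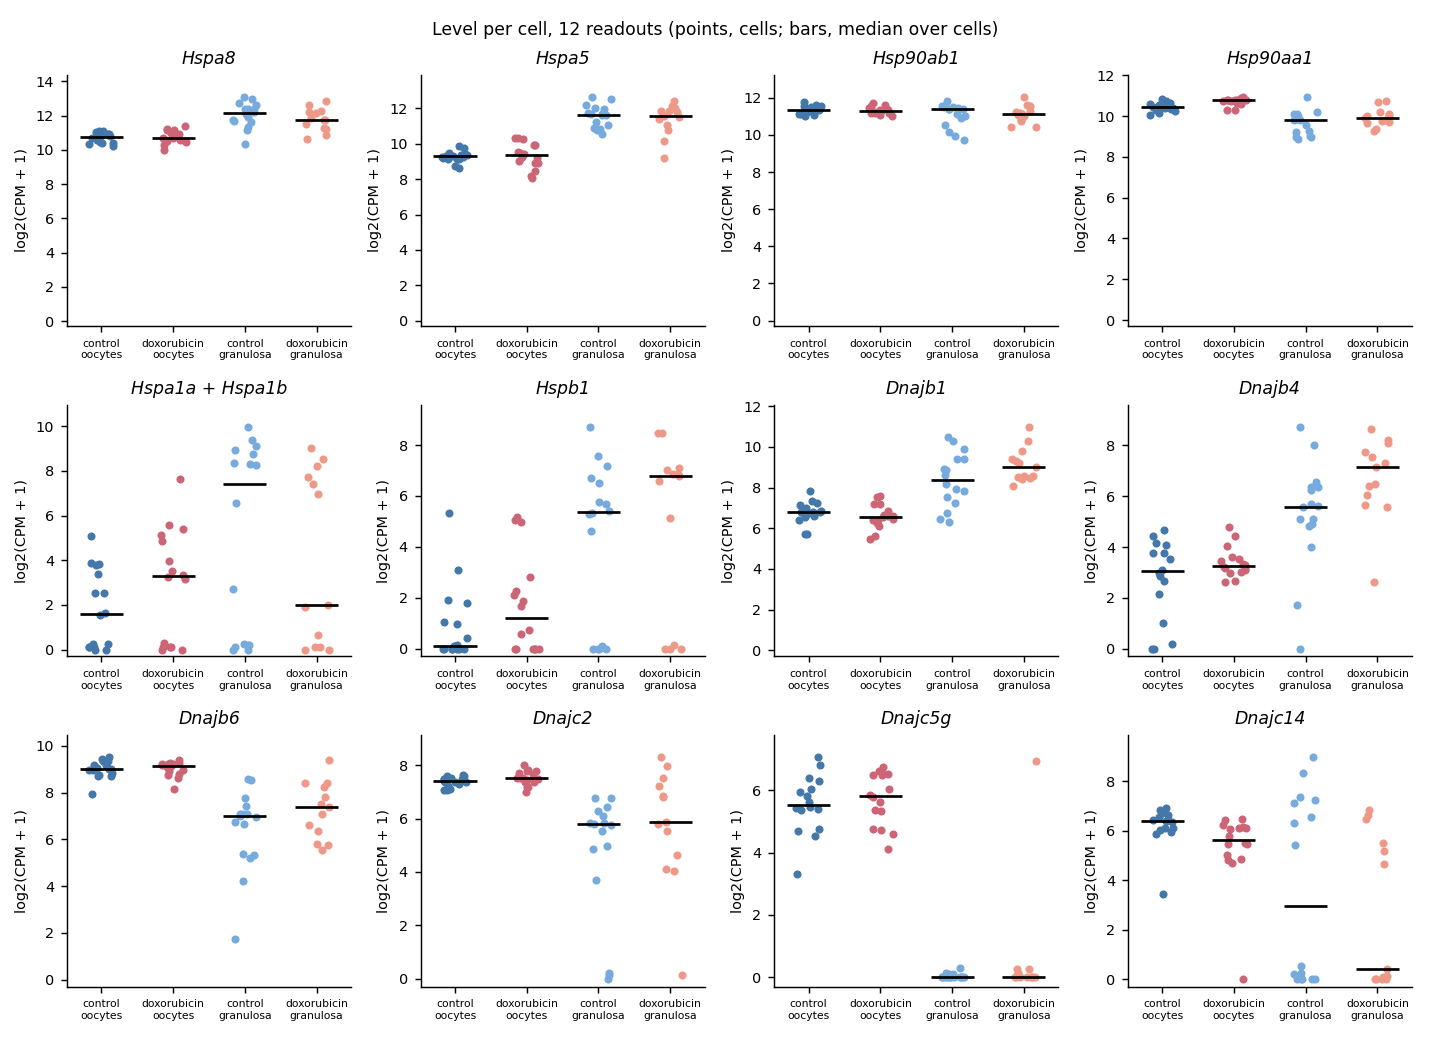
Level per cell of 12 readouts as log2(CPM + 1), 1 point per cell in 4 groups, with a bar at the group's median over cells. Hspa5, Dnajc2 and Dnajc5g separate control oocytes from control granulosa cells without overlap, and the doxorubicin groups overlap their controls in every panel.

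The comparison of doxorubicin with control oocytes asks what 6 h of drug did to the chaperone set. The constitutive HSP70, HSP90, endoplasmic reticulum and mitochondrial genes kept their levels within 2-fold, and the members beyond 2-fold were the inducible HSP70 pair and Hspb1, all at low levels. In 60 members one of the groups reached 5 CPM, and 3 of these were at least 2-fold higher (5.0%, against 6.3% of all 11119 genes) and none was 2-fold lower (against 2.45%). The median log2 ratio was 0.05 for the members and 0.01 for all genes, with 35 members above 0 and 25 below. The number beyond 2-fold was 5 with a minimum of 1 CPM and 0 with a minimum of 20 CPM, with no share of all genes given. None of the 3 stayed beyond 2-fold when each cell was left out in turn. No member, and no gene at that level (0.0%), had every doxorubicin oocyte above or below every control oocyte.

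The Hspa1a and Hspa1b sum was 0 to 33.1 CPM in control oocytes (median 2.03) and 0 to 197 CPM in doxorubicin oocytes (median 8.79). It was at least 1 CPM in 9 and 10 cells, and 4 doxorubicin oocytes exceeded the highest control, so the groups overlapped widely. The group levels were 7.10 and 23.2 CPM, a log2 ratio of 1.71 (1.62 to 1.80). The copies had like values, from 2.79 to 9.07 CPM for Hspa1a (1.70) and from 4.31 to 14.1 CPM for Hspa1b (1.71). Doxorubicin oocyte 9, the highest cell, also had the most granulosa-marker CPM (3113), and without it the ratio of the sum was 0.99, just short of 2-fold.

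Since granulosa cells carried far more of this pair, the oocytes with less than 200 CPM of granulosa markers were set apart, 11 in each group. Their sum was 0 to 13.6 CPM in controls (median 0.196) and 0 to 41.5 CPM after doxorubicin (median 9.03), a log2 ratio of 1.49 over the group levels. Of the 5 oocytes after doxorubicin above that limit, the lowest had 0 CPM, the median was 0.214 CPM and the highest 197 CPM. Beyond these values the part of granulosa RNA in the pair was not tested.

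Hspb1 was at 0 to 39.4 CPM in control oocytes (median 0.0911) and 0 to 34.7 CPM in doxorubicin oocytes (median 1.43). The highest cell of all was a control, and the ratio of the group levels, 3.26 and 7.67 CPM, was 1.23 on the log2 scale. Leaving out doxorubicin oocyte 5 gave 0.81, and leaving out control oocyte 9 gave 2.62. In the oocytes under 200 CPM of granulosa markers the median was 0 CPM in controls and 2.22 CPM after doxorubicin.

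**Figure D4:**
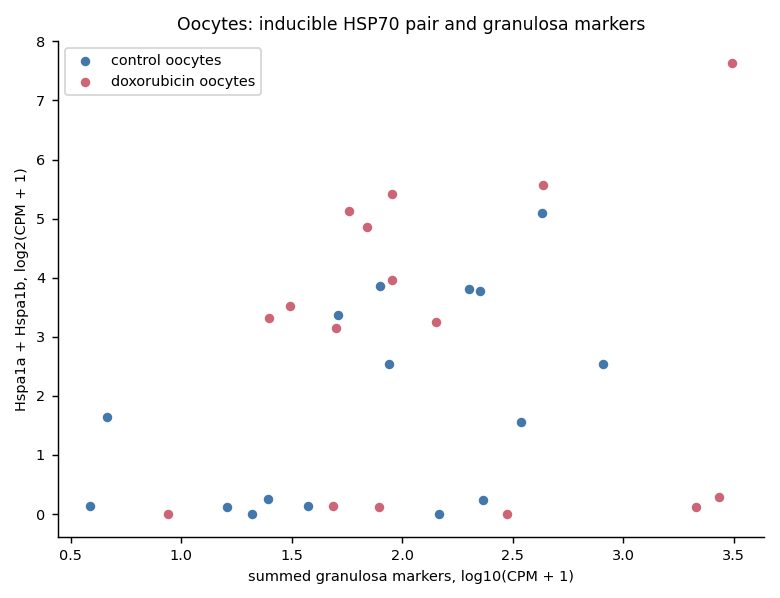
Summed Hspa1a and Hspa1b, log2(CPM + 1), against summed granulosa markers, log10(CPM + 1), with 1 point per oocyte. The highest oocyte for the pair, at 197 CPM, is also the one with most granulosa markers, while several doxorubicin oocytes with few granulosa markers lie above the controls beside them.

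Among genes at higher levels the differences were smaller and steadier. Hspe1 (HSP10, the lid of the HSP60 chamber) was at 31.4 to 93.0 CPM in control oocytes (median 69.6) and 54.5 to 162 CPM in doxorubicin oocytes (median 105). In 11 of 16 doxorubicin oocytes it was above the highest control. The log2 ratio was 0.60 (0.57 to 0.63), between 0.54 and 0.64 without each cell in turn. Hspe1 exons overlap Hspd1 on the opposite strand, and the strand setting is not given. How reads that fit more than 1 place were counted is not given either, so both the level and the ratio of Hspe1 are uncertain. Its partner Hspd1, which shares a divergent promoter with it, was at 420 and 431 CPM (0.04). Hsp90aa1 was at 1068 to 1828 CPM in controls (median 1384) and 1254 to 1950 CPM after doxorubicin (median 1743), a ratio of 0.26, while Hsp90ab1 was at 2612 and 2585 CPM (-0.01).

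On the lower side, Dnajc14, a J-protein of the endoplasmic reticulum membrane, was at 9.78 to 118 CPM in control oocytes (median 83.2) and 0 to 87.0 CPM in doxorubicin oocytes (median 48.8). Its log2 ratio was -0.73 (-0.77 to -0.70), and 6 control oocytes exceeded the highest doxorubicin oocyte. The gene (chr10:128804062-128819446) has exons that overlap Sarnp on the same strand and Ormdl2 and Tmem198b on the opposite strand, so its reads may be shared. Hsph1 was at 209 and 168 CPM (-0.32) and Dnajc11 at 293 and 235 CPM (-0.32). Dnajc14 and Dnajc11 were chosen after their values were seen.

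The rest of the classes stayed near their control levels. Hspa8 was at 1677 and 1775 CPM (0.08), Hspa5 at 622 and 708 CPM (0.19), Hsp90b1 at 768 and 719 CPM (-0.10) and Hspa9 at 459 and 428 CPM (-0.10). Hspa5 was more spread after doxorubicin, from 267 to 1282 CPM, than in controls, from 395 to 943 CPM. In oocytes under 200 CPM of granulosa markers its ranges were 267 to 992 CPM after doxorubicin and 395 to 852 CPM in controls. Of the J-proteins, Dnaja1 (223 and 224 CPM), Dnajb6 (542 and 529 CPM), Dnajb1 (115 and 103 CPM) and Dnajb9 (16.3 and 16 CPM) all had log2 ratios between -0.17 and 0.01. Dnajc3 was at 88.5 and 72.4 CPM (-0.29), Hspa2 at 49.2 and 51.5 CPM and Dnajc5g at 55.1 and 59.6 CPM (0.11). Among the 11 heat-inducible members, 3 were at least 2-fold higher (against 6.3% of all genes), of which 2 are the near-identical copies Hspa1a and Hspa1b, and the median log2 ratio was 0.26 against 0.01. Of the 8 that reached 5 CPM in both groups, 0 passed 2-fold and the median was 0.06.

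**Figure D5:**
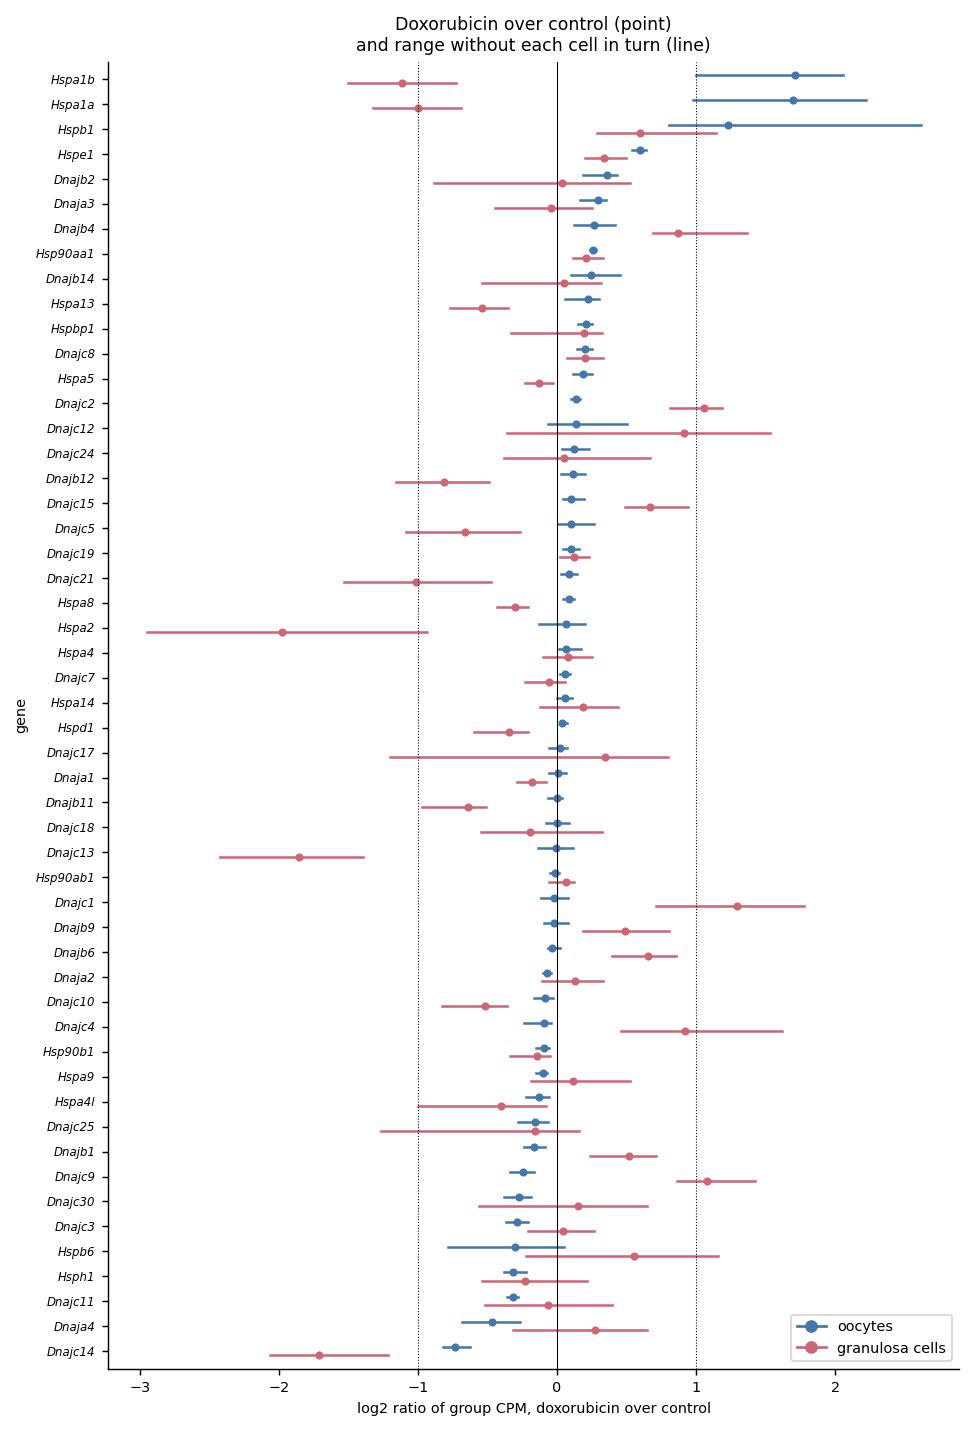
Log2 ratio of group CPM, doxorubicin over control, for 52 chaperone genes in oocytes and granulosa cells (points). Lines run from the lowest to the highest value when each cell is left out in turn. Not shown, for their wide ranges, are 5 genes: Dnajb3, Dnajc28, Dnajc5g, Hspa12a and Hspbap1. Dotted lines mark 2-fold; Hspa1b, Hspa1a and Hspb1 lead in oocytes, where most other genes sit near 0 with short lines, and lines in granulosa cells are longer.

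In granulosa cells, doxorubicin and control differed more from gene to gene, but so did all genes. In 61 members one of the groups reached 5 CPM, and 7 of these were at least 2-fold higher after doxorubicin (11.5%, against 20.6% of all 12194 genes) and 8 at least 2-fold lower (13.1%, against 20%). The median log2 ratio was 0.07 for members and -0.03 for all genes, and -0.24 for members over libraries with more granulosa than oocyte markers. Over the libraries with more granulosa than stroma markers, 11 in each group, the members' median was 0.0011, with 8 higher and 6 lower. Without doxorubicin granulosa cell 15 it was 0.0878, with 8 higher and 9 lower. For these 2 subsets no share of all genes is given, so their counts cannot be called many or few. Beyond these values the part of oocyte, stroma and blood RNA in the granulosa ratios was not tested. No member, and no gene at that level (0.0%), separated the groups. Without each cell in turn, 2 of the 7 (Dnajb3 and Hspb8) and 4 of the 8 (among them Dnajc13, Dnajc14 and Hspa12a) stayed beyond 2-fold. Hspa12a went from -4.16 to 7.06 over libraries with more granulosa than oocyte markers.

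The inducible genes did not share one direction. The Hspa1a and Hspa1b sum was 0 to 998 CPM in control granulosa cells (median 200) and 0 to 513 CPM after doxorubicin (median 2.96). It was at least 1 CPM in 10 of 16 and 8 of 13 cells. The group levels were 264 and 126 CPM, a log2 ratio of -1.07 (-1.09 to -1.04), from -1.43 to -0.71 without each cell and -0.56 over the libraries with more granulosa than oocyte markers. Dnajb1 was at 77.2 to 1443 CPM in controls (median 337) and 269 to 2014 CPM after doxorubicin (median 518). In 7 control cells it was below the lowest doxorubicin cell, and the ratio was 0.52 (0.50 to 0.53), or 0.50 over those same libraries.

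Dnajb4 was at 0 to 424 CPM in control granulosa cells (median 47.4) and 5.17 to 398 CPM after doxorubicin (median 142), a log2 ratio of 0.87 that was 0.05 over libraries with more of their own markers. Hspb1 was at 0 to 419 CPM (median 40.5) and 0 to 354 CPM (median 110), a ratio of 0.60 that was -0.40 over those libraries. For both genes the doxorubicin median was higher while the ranges overlapped. Hspb8, which works with Bag3 in selective autophagy, was at 0.172 CPM in controls and 29.7 CPM after doxorubicin, all but a trace of it in 4 cells. Among the 11 heat-inducible members only Hspa1b passed 2-fold, on the lower side (against 20% of all genes), and the median log2 ratio was -0.18 against -0.03.

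Constitutive chaperones varied less. Hspa8 was at 4843 CPM in control and 3919 CPM in doxorubicin granulosa cells (log2 ratio -0.31), Hspa5 at 3380 and 3081 CPM (-0.13), Hsp90ab1 at 2263 and 2367 CPM (0.07) and Hsp90aa1 at 882 and 1017 CPM (0.21). Hsp90b1 was at 868 and 785 CPM (-0.15), Hspd1 at 280 and 221 CPM (-0.34), Hspa9 at 347 and 375 CPM (0.11) and Dnaja1 at 653 and 576 CPM (-0.18). Hsph1 was at 140 and 120 CPM (-0.23), Dnajb9 at 17.3 and 24.3 CPM (0.49) and Dnajc3 at 185 and 191 CPM (0.04). Over libraries with more granulosa than oocyte markers, Hspd1 (0.65) and Hsp90b1 (0.45) had positive ratios and Dnajb9 a negative one (-1.01). Hspa2 was at 47.8 CPM in control cells, from 2 cells, and 12.1 CPM after doxorubicin, from 3.

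The DNAJC genes that passed 2-fold split by how they behaved once libraries with more oocyte than granulosa markers were set aside. Dnajc13, an endosomal J-protein, was at 56.5 and 15.6 CPM (log2 ratio -1.85), and at -0.98 over the libraries with more granulosa markers. Dnajc14 was at 93.5 and 28.5 CPM (-1.71) but 0.06 over those libraries, and 0.13 over those with more granulosa than stroma markers. Dnajc2, at 48.2 and 100 CPM (1.06), was at -0.27 there, and Dnajc9, a histone chaperone, at 94.3 and 199 CPM (1.08), was at -0.60. Dnajc1, at 36.9 and 90.7 CPM (1.30), was at 0.95 there and at 0.71 without doxorubicin granulosa cell 4. Dnajc21 was at 30.1 and 14.9 CPM (-1.01), at -0.28 over the libraries with more granulosa than oocyte markers and at -0.47 without control granulosa cell 14. The oocyte markers that moved with treatment in these libraries are those given at the start, and beyond these values their part in the J-protein ratios was not tested.

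In other members 1 library held most of the counts of a granulosa group. Dnajc5g reached 10.5 CPM after doxorubicin, 99.6% of it in doxorubicin granulosa cell 14 (122 CPM). Hspbap1 reached 31.2 CPM, 99.8% of it in doxorubicin granulosa cell 1 (462 CPM), the library with 45072 CPM of oocyte markers. Dnajb3 reached 17.2 CPM, 64.8% of it in doxorubicin granulosa cell 4, and stayed beyond 2-fold without each cell in turn. The control level of Dnajc6, an auxilin, was 11.7 CPM, all of it in control granulosa cell 3.

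Hspe1 (chr1:55088132-55091307) had a positive ratio in granulosa cells as well, at 97.3 CPM in controls and 123 CPM after doxorubicin (log2 ratio 0.34, from 0.20 to 0.49 without each cell). Between control cell types it was lower in oocytes, at 68.8 against 97.3 CPM (-0.50). How reads that fit more than 1 place were counted is not given, so its level and all of its ratios, with their signs, are uncertain.

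Beyond the members, 35 heat shock factors and co-chaperones were listed, and they had few differences in oocytes: of 34 with at least 5 CPM, 2 were at least 2-fold higher after doxorubicin (against 6.3% of all genes) and 1 lower (against 2.45%). Bag3, an HSF1 target that couples HSP70 to small heat shock proteins, was at 0 to 19.3 CPM in control oocytes (median 3.72) and 0 to 52.0 CPM after doxorubicin (median 17.1). In 7 doxorubicin oocytes it was above the highest control, and the log2 ratio was 1.65, from 1.46 to 1.92 without each cell. Bag4, which restrains death receptors and binds HSP70, was at 38.1 to 117 CPM (median 69.0) and 33.3 to 292 CPM (median 122), a ratio of 1.11. Bag2, an HSP70 exchange factor, was at 11.4 and 5.60 CPM (-1.03). Hsf1 itself was at 89.9 and 68.8 CPM (-0.39).

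In granulosa cells 6 of 35 were at least 2-fold higher after doxorubicin (against 20.6% of all genes) and 4 lower (against 20%). Hscb, a J-protein of iron-sulphur cluster assembly, was at 11.9 and 39.6 CPM (1.73) and Unc45a, a myosin and HSP90 co-chaperone, at 38.1 and 109 CPM (1.51). Bag5 was at 113 and 26.6 CPM (-2.09) and Hsf2 at 18.1 and 4.87 CPM (-1.90). Over libraries with more granulosa than oocyte markers these ratios were -0.83 and -0.59, both within 2-fold. Grpel2, a mitochondrial exchange factor, had a ratio of -1.03, and 0.45 over those libraries. Between control cell types 6 of 34 were at least 2-fold higher in oocytes (against 29.0% of all genes), led by Hscb (2.40), Hyou1 (2.23), Trap1 (1.51) and Unc45a (1.49), and 6 lower (against 31.3%), among them Bag3 (-2.83), Bag2 (-2.07), Chordc1 (-1.42) and Bag5 (-1.31, or -0.53 over libraries with more of their own markers). Hyou1, the HSP110 relative of the endoplasmic reticulum, was thus higher in the cells in which its partner Hspa5 was lower.

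Within each group, 27 rank correlations across cells were computed (108 in all) between members and summed lists, and they describe cells that share a group and a common denominator. Dnajb1 ranked with the immediate-early sum in all 4 groups, with Spearman's rho of 0.64 in control oocytes (n = 16), 0.40 in doxorubicin oocytes (n = 16), 0.69 in control granulosa cells (n = 16) and 0.80 in doxorubicin granulosa cells (n = 13). For Hspa8 the values were 0.11, 0.80, 0.71 and 0.61 in the same order, and for Hspa5 0.59, 0.49, 0.02 and 0.91. The other members varied in sign. In that order, the Hspa1a and Hspa1b sum had 0.71, 0.31, -0.21 and -0.04, and Dnajb4 had 0.54, 0.18, 0.59 and -0.14. Hspb1 had 0.08, -0.44, -0.004 and 0.34, and Hsph1 had 0.12, -0.18, 0.006 and -0.01. Hsp90aa1 had 0.003, -0.26, -0.15 and -0.42, and Hspe1 had 0.24, 0.02, -0.23 and -0.28. The same members were ranked against the marker sums as well, and part of those values follow in the same order of groups. With oocyte markers, Hspa5 had rho of -0.59, -0.19, -0.60 and -0.83, and Hsp90aa1 had 0.10, 0.79, -0.15 and 0.35. With granulosa markers, Dnajb1 had 0.49, 0.42, -0.05 and 0.35. Hspa8 had 0.03, 0.51, -0.30 and 0.18 with them, and Hspa5 had 0.46, 0.55, 0.15 and 0.58.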

How the data were processed

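Single cells were profiled with SMART-seq chemistry on full-length mRNA, 1 library per cell. The deposited table holds estimated counts per gene, made by the authors: 34.05% of the values above 0 are not whole, and they were rounded to whole numbers here. Per the submitters' processing notes, the tools were Partek, Bowtie2, HISAT2 and DESeq2 and the build mm10. Their order, the annotation, the strand setting and the treatment of reads that fit several genes are not given in the sources used here. The raw reads of doxorubicin oocyte 4 were lost, per the series text, and its deposited counts were kept. Of the gene rows, 22 carry names that a spreadsheet turned into dates, none of them a member.

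Counts of a group's cells were summed and divided by their summed totals to give group CPM, with a group under 3 counts set to 3 in ratios. Intervals are 95% exact Poisson for a level and exact conditional binomial for a ratio, and they cover counting error only, since reads carry no molecular identifiers. Because no animal is named, each group is 1 sample: no test was run and no error between animals can be given. Depth was 6834594 to 31262609 counts per cell. Members and all genes are described by median log2 ratio and by counts beyond 2-fold, over genes for which one of the groups compared reached 5 CPM. Lengths are from GENCODE M21 (GRCm38) and promoters from RefSeq; 14 members are not in that table.

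Members and lists were chosen with earlier results of these data known. Genes named in the text are a fixed panel of 18, then up to 8 members per direction and comparison that differed 2-fold or more, whose higher group reached 5 CPM and had 5 or more reads in 50% or more of cells, ranked by the smallest ratio when each cell is left out, and up to 4 co-chaperones likewise. Others were named after their values were seen. One member is counted but its values are not reported here, and it is left out of the plots. Alternatives were TMM (edgeR 4.0.16) and DESeq2 1.42.0 scaling, minimums of 1 and 20 CPM, medians of log2(CPM + 1) over cells, each cell left out, marker-based subsets, copies summed, 3 oocytes left out, and granulosa cells with more stroma than granulosa markers left out; the last 3 were chosen after seeing the data. The calculation was tested on simulated data. Python 3.11.15, numpy 2.4.6, pandas 2.3.3, scipy 1.17.1, matplotlib 3.10.9 and R 4.3.3 were used.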

Additional observations from a re-analysis of the deposited data

Results flagged for a closer look

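For 12 members the ratio of doxorubicin to control had opposite signs in oocytes and granulosa cells. Each sign held when any 1 cell was left out. The near-identical copies Hspa1a and Hspa1b are counted separately among the 12. No share of all genes under the same rule is given, so the 12 cannot be called many or few. The difference between the cell types was not tested because each group is 1 sample. The values here are the granulosa log2 ratio minus the oocyte log2 ratio. The inducible HSP70 genes had the widest gaps, -2.70 for Hspa1a and -2.83 for Hspa1b, with higher levels after doxorubicin in oocytes and lower ones in granulosa cells. The same order of signs was seen for Hspa5 (-0.320), Hspa8 (-0.387), Hspd1 (-0.381), Hspa13 (-0.766), Dnajb12 (-0.929), Dnajc5 (-0.761) and Dnajc21 (-1.10). The reverse order, higher in granulosa cells and lower in oocytes, was seen for Dnajb1 (0.686), Dnajc4 (1.01) and Dnajc9 (1.32). Dnajc9 had a granulosa ratio of -0.60 over libraries with more granulosa than oocyte markers. The granulosa ratio of Hspd1 was positive over those libraries, as given above, so neither gene kept opposite signs there. Not every flagged member is given over those libraries. In oocytes under 200 CPM of granulosa markers, the Hspa5 median was 597 CPM in controls and 576 CPM after doxorubicin. The Hspa8 medians there were 1507 and 1517 CPM. In oocytes above that limit the medians were 669 and 1236 CPM for Hspa5, and 1816 and 2268 CPM for Hspa8. The part of granulosa RNA in these oocyte signs was not tested.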

How the results depend on the processing

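No paired analysis was possible because the numbers in the cells' names mark no shared animal or day and no test was run. Scaling by TMM or DESeq2 multiplied group totals by 0.981 to 1.020. Medians over cells were also used in place of group sums. The members' median log2 ratio was then 0.0158 for doxorubicin over control oocytes, with 1 member 2-fold lower (1.67%, against 5.14% of all genes). In granulosa cells it was 0.0, with 14 lower (23.0%, against 13.7% of all genes). For control oocytes over granulosa cells it was 1.2131, with 33 higher (53.2%, against 55.5% of all genes). DESeq2 scaling gave -0.0879 for the last. A minimum of 1 CPM gave 5 higher in oocytes, and a median of 0.1233 with 12 higher in granulosa cells; a minimum of 20 CPM left 0 higher in oocytes. Over libraries with more of their own markers the medians were -0.2446 for granulosa cells and -0.0813 between cell types, and Dnajc14 (0.0602), Dnajc2 (-0.2698), Dnajc9 (-0.5997) and Grpel2 (0.4478) changed sign in granulosa cells. With granulosa markers limited to under 200 CPM in oocytes and required at 5000 CPM or more in granulosa cells, the medians were -0.0637 and -0.1961. With more granulosa than stroma markers required in granulosa cells, the medians were 0.0011 for granulosa cells and -0.0379 between cell types. Without the 3 doxorubicin oocytes with most granulosa markers the oocyte median was 0.0215. The cause was not tested in any of these. Leaving out each cell gave medians of 0.0130 to 0.0689 in oocytes, 0.0137 to 0.1377 in granulosa cells and -0.2008 to -0.0705 between cell types. The counts of members 2-fold higher and lower were then 1 to 3 and 0 to 0, 5 to 10 and 6 to 11, and 11 to 14 and 11 to 15. Apart from the medians over cells, no share of all genes is given beside the counts here. Genes under about 5 CPM rest on few cells, and with 1 sample per group nothing here separates animals.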
